A study of Homo sapiens with 2 samples.

Results

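The 44 genes described here belong to the antioxidant system that is organised around the transcription factor NRF2, glutathione and thioredoxin. They were taken by symbol from a fixed list, and all 44 were found among the 23368 gene symbols that were counted. The RNA came from SUM159, a triple-negative breast cancer cell line of wild-type genotype by its label, which was grown attached and made resistant to doxorubicin by long-term exposure to escalating doses with recovery in drug-free medium. Both bulk RNA-seq libraries, replicates 1 and 2, are of this 1 condition. Treatment-naïve and paclitaxel-resistant cells were not analysed here, so the values are levels in resistant cells and no change upon resistance was tested. Whether the resistant cells descend from 1 clone, and whether the libraries came from separate cultures, was not stated. The spread between them may therefore be technical.

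Doxorubicin is a quinone that can cycle between redox states and give superoxide, besides poisoning topoisomerase II. Superoxide dismutases turn superoxide into hydrogen peroxide, which catalase, glutathione peroxidases and peroxiredoxins remove. Glutathione and thioredoxin supply the electrons for the peroxidases and peroxiredoxins, and are themselves reduced at the expense of NADPH. KEAP1 keeps NRF2 low by marking it for degradation. When KEAP1 is modified by electrophiles, NRF2 accumulates, pairs with a small MAF protein and binds antioxidant response elements near the genes of these enzymes. NRF2 is controlled largely at the level of the protein, which RNA counts do not show.

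The libraries hold 23044084 and 17985508 counts, so that 1 count is 0.0434 counts per 1000000 (CPM) in replicate 1 and 0.0556 CPM in replicate 2. A limit of 3 counts, which a count of 0 allows, is 0.130 CPM and 0.167 CPM, and covers counting error only. The libraries differed by far more than sampling noise (chi-square 944379, 13743 degrees of freedom, genes with at least 10 counts in total). The biological coefficient of variation from edgeR was 22.3%. Markers known for this mesenchymal line were present, with VIM at 7542 ± 873 CPM and CD44 at 1148 ± 11.9 CPM (SD, n = 2 each). In replicates 1 and 2, SPARC had 1989 and 2171 CPM and AXL had 455 and 457 CPM. FN1 differed more, with 2027 and 5101 CPM. ESR1, PGR and EPCAM had between 0 and 11 counts in each library. ERBB2, the other receptor gene by which triple-negative cancers are defined, had 95.1 and 104 CPM. Of 12 markers of leukocytes, endothelium, red cells and liver, 6 had no counts and 3 reached a mean count of 20, the highest being CD14 with 356 and 137 counts. Their part in the results was not tested.

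Most of the antioxidant genes were well expressed in the resistant cells. The minimum for calling a gene expressed, a mean of 20 counts, was met by 39 of the 44 members, against 52.8% of all gene symbols. A mean of 1000 counts or more was found for 31 members, against 20.6% of symbols. The median over the 44 genes was 88.4 CPM, 98.0 in replicate 1 and 80.2 in replicate 2, whereas all expressed genes had a median of 34.1 CPM. In bulk RNA, fewer cells with a transcript and less of it per cell cannot be told apart. Together the members took 0.976% of the counts of replicate 1 and 0.787% of those of replicate 2. SOD2, SQSTM1 and TXNRD1 had the highest CPM. Of the 5 genes below the minimum, GPX2, GPX3, GSTM1 and GSTM3 did not exceed the limit of 3 counts in either library. GSTM2 was above that limit, with 16 and 8 counts.

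**Figure D1:**
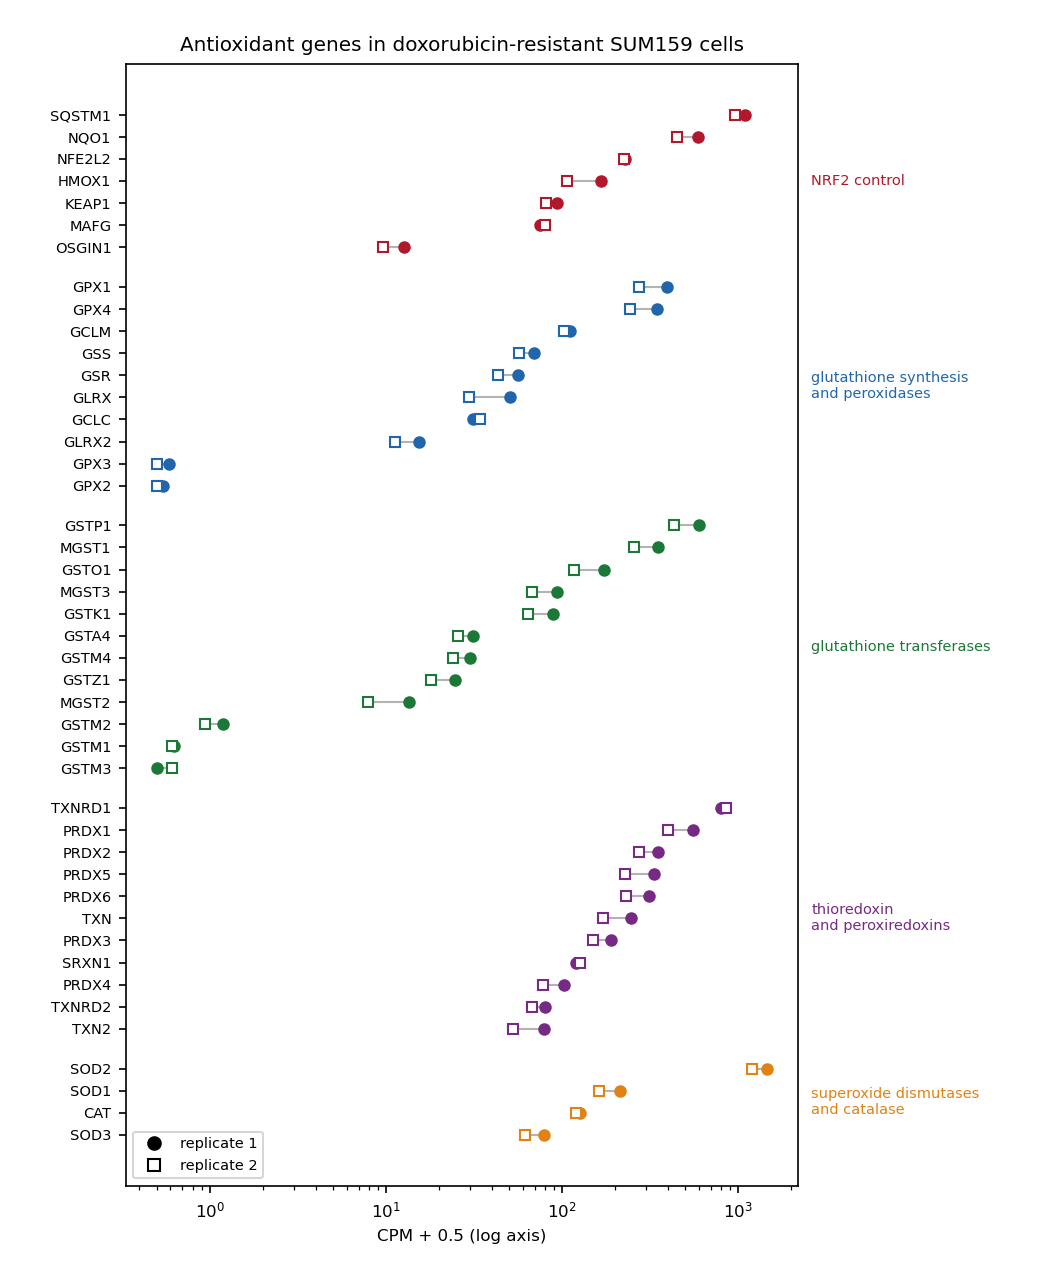
CPM plus 0.5, on a log axis, of the 44 antioxidant genes in the doxorubicin-resistant cells, sorted by mean within each role. Filled circles are replicate 1, open squares replicate 2. SOD2 lies at the right with 1465 and 1197 CPM, and 5 peroxidase and transferase genes lie at the left with at most 16 counts in a library.

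The antioxidant response element has the core TGACNNNGC, read on either strand. RefSeq promoter windows, which run from 250 bases before to 50 bases after the start of the gene in GRCh38.p14, were matched for 36 of the 44 members, and 9 of these windows hold the core. This is 25% of the matched members, against 13.3% of all 35116 windows, 14.2% of the windows of expressed genes and 23.1% of 78 windows of other genes of the pathway. Elements outside these windows, such as the distal ones known for HMOX1, were not searched, and a match is only a run of letters. The cores of all 9 windows are shown, whatever the level of the gene. GSTP1, TXNRD1, MGST1 and GSTO1 were abundant, and KEAP1 and GCLM intermediate. GSTA4 was lower, and GPX2 and GSTM1 were almost without counts. Each line gives 29 bases in the direction of the gene, with the core in capitals, or its reverse complement GCNNNGTCA where the core is on the opposite strand. Positions are in GRCh37, from an exact match of the whole window.
GCLM, chr1:94375002-94375030, minus strand: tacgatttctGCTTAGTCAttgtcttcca
TXNRD1, chr12:104680698-104680726, plus strand: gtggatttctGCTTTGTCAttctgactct
GSTP1, chr11:67351207-67351235, plus strand: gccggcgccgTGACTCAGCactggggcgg
GPX2, chr14:65409567-65409595, minus strand: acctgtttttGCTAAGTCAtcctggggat
KEAP1, chr19:10613460-10613488, minus strand: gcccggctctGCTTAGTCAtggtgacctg
KEAP1, second core, chr19:10613483-10613511, minus strand: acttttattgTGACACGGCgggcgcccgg
GSTO1, chr10:106014414-106014442, plus strand: ggcggagggaTGACTGAGCatttataact
GSTO1, second core, chr10:106014479-106014507, plus strand: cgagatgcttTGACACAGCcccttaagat
GSTA4, chr6:52860073-52860101, minus strand: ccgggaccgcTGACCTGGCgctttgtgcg
MGST1, chr12:16500069-16500097, plus strand: ggggacatcgTGACAAAGCaaattgtctg
GSTM1, chr1:110230264-110230292, plus strand: ctgggcgcccTGACTTCGCtcccggaacc
The core of GCLM and the first one listed for KEAP1 are identical, TGACTAAGC on the opposite strand. TXNRD1 and MGST1 share the core TGACAAAGC, on the opposite strand for TXNRD1 and in the direction of the gene for MGST1. The core of MGST1 begins 31 bases after the start and that of GSTA4 ends at the base before it, while that of GSTP1 begins 66 bases before the start.

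NFE2L2, which encodes NRF2, was expressed at similar levels in both libraries. Its position in GRCh37 is chromosome 2, 178083395 to 178257484. Replicate 1 held 228 CPM and replicate 2 held 224 CPM of it, and its mean CPM was above that of 93.3% of the expressed genes. Per kilobase of merged exons NFE2L2 was above 73.7% of the expressed genes that had a gene model. Its inhibitor KEAP1, on chromosome 19 from 10596801 to 10614234, had 93.2 and 80.3 CPM. MAFG, the small MAF partner, had 74.2 and 80.1 CPM. All members of the role group called NRF2 control, which holds target genes of NRF2 as well as regulators, were above the minimum count. They ranged from OSGIN1, an oxidative stress-induced growth inhibitor gene with 281 and 165 counts, to SQSTM1. SQSTM1 encodes the autophagy receptor p62, which sequesters KEAP1, and had 1087 and 960 CPM.

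Per length of merged exons, the quinone reductase NQO1 led the NRF2 control group. NQO1, on chromosome 16 from 69740899 to 69760571, had 592 and 451 CPM, which is 175 ± 33.6 CPM per kilobase of its merged exons (SD, n = 2). SQSTM1 followed with 136 ± 11.95 CPM per kilobase, and the heme oxygenase gene HMOX1 had 59.0 ± 18.6 CPM per kilobase (SD, n = 2 each). At the lower end were MAFG, with 14.7 ± 0.796 CPM per kilobase, and OSGIN1, with 1.92 ± 0.384 CPM per kilobase (SD, n = 2 each). NFE2L2 had 15.1 ± 0.192 CPM per kilobase (SD, n = 2), and its order with MAFG changed between the libraries. The order of NFE2L2 and KEAP1 depended on which length was taken. NFE2L2 had 0.583 and 0.665 times the level of KEAP1 per kilobase of merged exons in replicates 1 and 2, but 2.56 and 2.92 times its level per kilobase of the canonical transcript, since the merged exons of NFE2L2 in the annotation span 14975 bases, 3520 of them shared with HNRNPA3 or AGPS, and its canonical transcript 2446. SQSTM1 likewise passed NQO1 with the canonical transcript, at 360 against 207 CPM per kilobase.

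**Figure D2:**
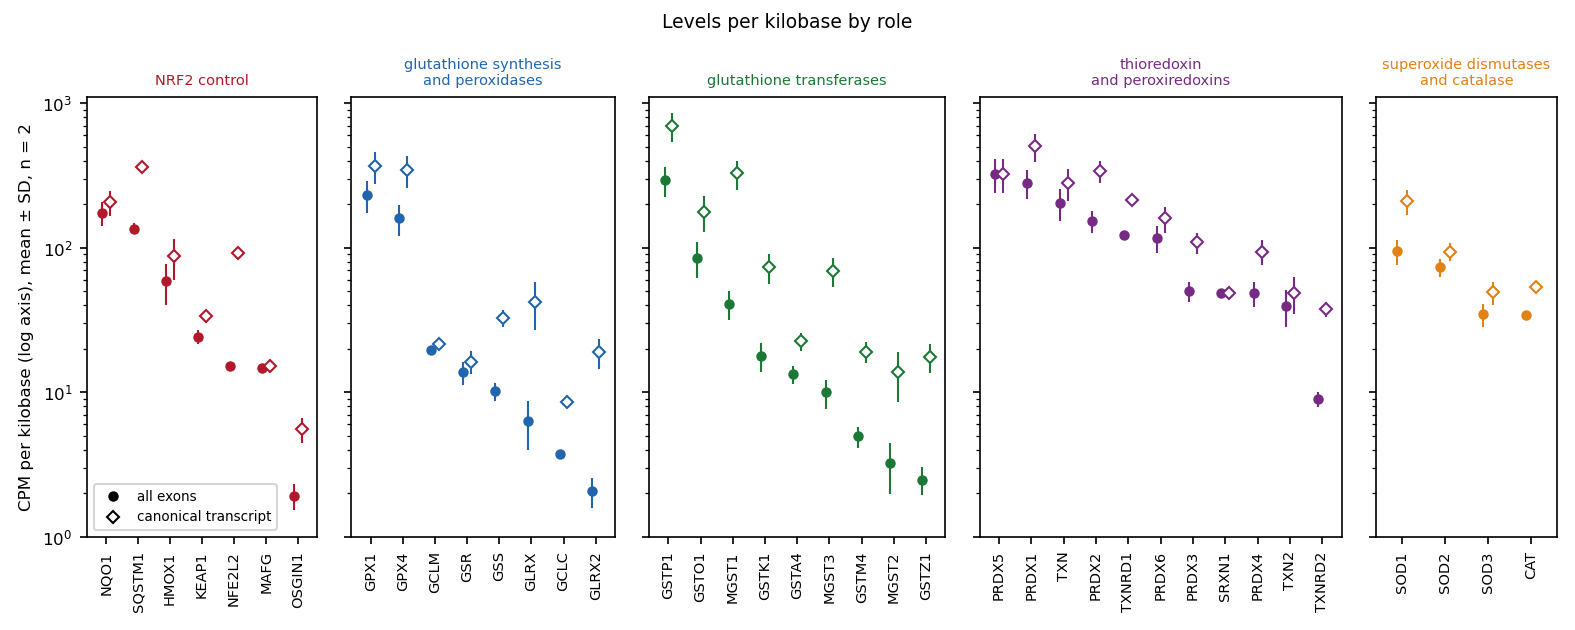
CPM per kilobase, on a log axis, of the 39 members with a mean count of at least 20, as mean ± SD of 2 libraries. Filled circles use the merged exons of the gene and open diamonds its canonical transcript. Within each role GPX1, GSTP1 and SOD1 lead by either length, and NFE2L2 lies below KEAP1 by merged exons and above it by the canonical transcript.

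Glutathione is made by glutamate-cysteine ligase, of which GCLC is the catalytic and GCLM the modifier subunit, and by glutathione synthetase, GSS. The RNA of the modifier was the more abundant of the ligase subunits. GCLM had 110 and 102 CPM, against 30.9 and 33.7 CPM of GCLC, and per kilobase of merged exons GCLM had 5.65 and 4.81 times the level of GCLC in replicates 1 and 2. With the canonical transcripts it had 2.76 and 2.35 times that level. GSS had 68.8 and 56.2 CPM, and glutathione reductase, GSR, which regenerates glutathione from its disulfide, had 55.8 and 43.0 CPM. GCLC had 3.75 ± 0.234 CPM per kilobase, and only GLRX2, a mitochondrial glutaredoxin, was lower among the genes of this group that passed the minimum count, with 2.07 ± 0.483 CPM per kilobase (SD, n = 2 each). With the canonical transcript GCLC was the lowest, at 8.54 CPM per kilobase, and GLRX2 had 18.8.

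Of the selenium-containing glutathione peroxidases, GPX1 and GPX4 were expressed and GPX2 and GPX3 were not detected above the limit. GPX1, the general cytosolic enzyme, on chromosome 3 from 49394607 to 49396038, had 391 and 272 CPM. GPX4, which reduces lipid peroxides in membranes and so protects cells from ferroptosis, on chromosome 19 from 1103981 to 1106790, had 345 and 243 CPM. Their ratio was nearly the same in both libraries, GPX1 having 1.46 and 1.44 times the level of GPX4 per kilobase of merged exons and 1.07 and 1.06 times with the canonical transcripts. GPX2, the gastrointestinal enzyme, had 1 count in replicate 1 and 0 in replicate 2. GPX3, which is secreted into plasma mainly by the kidney, had 2 and 0. GPX1 shares 572 exonic bases with an unnamed coding gene of the annotation, and what became of reads there was not stated.

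Among the glutathione transferases, which couple glutathione to electrophiles, GSTP1 was the highest. GSTP1, on chromosome 11 from 67351213 to 67354127, had 602 and 433 CPM, or 293 ± 67.8 CPM per kilobase (SD, n = 2). It made up 62.03% of the summed levels per kilobase of the 12 transferase genes in replicate 1 and 62.6% in replicate 2, or 49.1% and 49.4% with the canonical transcripts. GSTO1, of the omega class, followed with 173 and 116 CPM, 18.5% and 17.4% of the sum. The microsomal transferase MGST1 had 352 and 254 CPM, which is 8.58% and 8.71% of the sum by merged exons but 23.0% and 23.2% with the canonical transcript, above GSTO1 at 12.8% and 12.03%. The order of GSTO1 and MGST1 thus rests on the length taken.

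The other transferases were lower. MGST3 had 93.2 and 67.3 CPM, GSTK1, the mitochondrial and peroxisomal kappa enzyme, had 87.9 and 63.4 CPM, and GSTA4, which acts on the lipid peroxidation product 4-hydroxynonenal, had 30.7 and 25.1 CPM. MGST2 and GSTZ1, an enzyme of tyrosine breakdown, were the 2 lowest of the expressed transferases per kilobase. By merged exons they had 3.22 ± 1.23 and 2.49 ± 0.555 CPM per kilobase (SD, n = 2 each), and their ranges overlapped. With the canonical transcripts MGST2 was the lower, at 13.8 against 17.5 CPM per kilobase. The genes of the mu class lie side by side on chromosome 1, and of these only GSTM4 was expressed, with 682 and 421 counts. GSTM2 had 16 and 8 counts, GSTM1 had 3 and 2, and GSTM3 had 0 and 2. These are related genes, and reads that match several of them may not have been counted, so their values are uncertain.

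The genes of thioredoxin and the peroxiredoxins were all above a mean count of 1000, and TXNRD1 was the highest of them in CPM. TXNRD1, the cytosolic thioredoxin reductase, on chromosome 12 from 104609557 to 104744085, had 799 and 846 CPM, and was thus higher in replicate 2. TXN, cytosolic thioredoxin, had 244 and 170 CPM, and its level per kilobase was 5.07 and 5.33 times that of the mitochondrial TXN2 in replicates 1 and 2. TXNRD1 likewise exceeded the mitochondrial reductase TXNRD2, by 12.3 and 15.4 times per kilobase of merged exons and by 5.04 and 6.32 times with the canonical transcripts. The ratio of TXN to TXNRD1 was less stable, at 2.03 in replicate 1 and 1.33 in replicate 2 per kilobase of merged exons. TXN2 and TXNRD2 were the 2 lowest members of the group per kilobase of merged exons. They had 39.6 ± 11.4 and 8.96 ± 1.06 CPM per kilobase (SD, n = 2 each). With the canonical transcripts SRXN1, at 48.6 CPM per kilobase, lay just below TXN2, at 49.0.

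All 6 peroxiredoxins, which reduce peroxides with electrons from thioredoxin or, for PRDX6, glutathione, were expressed. PRDX5 and PRDX1 were the 2 highest per kilobase of merged exons, with 326 ± 85.3 and 283 ± 63.4 CPM per kilobase (SD, n = 2 each), and their ranges overlapped. PRDX1, on chromosome 1 from 45976586 to 46008404, had 551 and 400 CPM. It held 29.0% and 28.9% of the summed peroxiredoxin levels per kilobase and 33.1% and 32.6% with the canonical transcripts, by which it exceeded PRDX5 at 21.9% and 20.4%. PRDX2 was next in CPM with 351 and 274. PRDX5 had 332 and 228 CPM and PRDX6 had 309 and 231 CPM, so that their order in CPM changed between the libraries. The mitochondrial PRDX3 had 189 and 150 CPM, and PRDX4 of the endoplasmic reticulum had 103 and 77.5 CPM. These shares moved by less than 2 percentage points between the libraries for every peroxiredoxin, while their CPM moved together. SRXN1, which repairs overoxidised peroxiredoxins, had 119 and 127 CPM. In the annotation 2292 bases of the exons of SRXN1 also belong to an unnamed coding gene on the same strand, and whether the authors counted such reads was not stated.

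SOD2, the mitochondrial manganese superoxide dismutase, had the highest CPM of the 44 genes. Its gene model spans 160090101 to 160183561 of chromosome 6. It had 1465 and 1197 CPM, and its mean was above that of 99.6% of the expressed genes. Per length the cytosolic SOD1 was higher, with 95.2 ± 18.6 CPM per kilobase of merged exons, against 73.4 ± 10.4 CPM per kilobase of SOD2 (SD, n = 2 each). This rests on long gene models of SOD2, with 18144 bases of merged exons and a canonical transcript of 14167 bases. If most of its reads came from shorter transcripts, which these files cannot show, its level per length is understated here. SOD3, the extracellular enzyme, had 78.5 and 60.9 CPM, and catalase, CAT, which breaks down hydrogen peroxide in peroxisomes, had 126 and 119 CPM. SOD3 and CAT were the 2 lowest per kilobase, with 34.5 ± 6.19 and 34.3 ± 1.38 CPM per kilobase (SD, n = 2 each), and their order changed between the libraries.

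The order of the genes per kilobase was largely shared by both libraries. Of the 34 pairs of neighbours within the 5 roles, 5 changed their order between the libraries, 3 of them among the thioredoxin and peroxiredoxin genes. The ranges of 10 neighbouring pairs overlapped, 7 of them in that group. PRDX5, PRDX1, TXN and PRDX2 kept their order from the highest down in both libraries although their ranges overlapped. TXNRD1 and PRDX6, PRDX3 and SRXN1, and SRXN1 and PRDX4 were the pairs of the group that changed order.

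The libraries differed beyond counting error for most members, almost always with the higher value in replicate 1. In the exact binomial test of edgeR with Benjamini-Hochberg adjustment over all 13744 genes with at least 10 counts, which compares these libraries and not conditions, 34 of the 40 members tested differed, against 57.7% of all genes. Higher values in replicate 1 were called for 33 members, against 27.6% of all genes, and in replicate 2 for 1, TXNRD1, against 30.1%. The test sets 1 library against 1 library and its p-values cover counting error only, not the spread between libraries of 22.3% given above. Such calls are more frequent at high counts. Of the 31 members with a mean of 1000 counts or more the test called 27, against 80.8% of all genes at that level. It called 26 of the 31 as higher in replicate 1, against 39.3% of all genes at that level. Calls with a difference of at least 1.5-fold were found for 4 members, all higher in replicate 1, against 5.76% of all genes in that direction and 16.6% in either. No member differed by 2-fold.

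The 4 members were MGST2, GLRX, HMOX1 and TXN2. MGST2 had 13.0 and 7.45 CPM in replicates 1 and 2, a log2 ratio of 0.76 (adjusted p = 1.78e-07, exact binomial test of edgeR). GLRX, the cytosolic glutaredoxin, had 49.9 and 29.2 CPM, a log2 ratio of 0.76 (adjusted p = 1.83e-24, same exact test). HMOX1, a gene that rises with many kinds of cell stress, had 167 and 106 CPM, a log2 ratio of 0.65 (adjusted p = 4.75e-60, same exact test). TXN2 had 78.7 and 52.2 CPM, a log2 ratio of 0.59 (adjusted p = 2.05e-24, same exact test). These log2 ratios are of CPM plus 0.5. At the other end, GCLC had a log2 ratio of -0.13, MAFG of -0.11 and SRXN1 of -0.09, and none of the 3 passed the test, with adjusted p = 0.171, 0.0557 and 0.0580 in the same exact test. NFE2L2 and CAT did not pass it either (adjusted p = 0.487 and 0.0780).

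The difference between the libraries moved with the length of the genes. Across 10772 expressed genes with a matched gene model, the log2 ratio of replicate 1 to replicate 2 had a Spearman rho of -0.56 with exonic length, and across the 39 members rho was -0.50, or -0.79 with the length of the canonical transcript. The points share the same pair of libraries. Of the genes with less than 2500 bases of merged exons, 90.3% were higher in replicate 1, and all 15 members of that length were. Of genes over 5000 bases, 31.6% were higher in replicate 1, but 13 of the 16 members were, among them GLRX2, MGST1, MGST3 and GSTZ1. The median log2 ratio of the 40 members tested was 0.39, against 0.01 for all genes tested.

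Set against a running median over 501 genes of like exonic length, 36 of the 39 members lay above it, by a median of 0.17 on the log2 scale, where 49.9% of all genes lie above. With the length of the canonical transcript in place of the merged exons, 30 of the 39 lay above the running median, against 49.8% of all genes, and the median distance was 0.069. By that length 31 of the 39 lay within 0.2 of the running median, 79.5%, against 53.4% of all genes. Those farther from it were SOD2 at 0.97, HMOX1 and GSR at 0.36, GLRX at 0.35, NQO1 and GCLM at 0.31, MGST2 at 0.29 and TXN2 at 0.27. Ratios scatter more at low counts, and the expressed members had a median of 123 CPM against 34.1 CPM of all expressed genes. The shares of 79.5% and 53.4% were not compared at like counts. For SOD2 the log2 ratio of 0.29 is set against genes as long as its canonical transcript of 14167 bases, whose running median was -0.68. The part of RNA quality in the length trend was not tested.

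**Figure D3:**
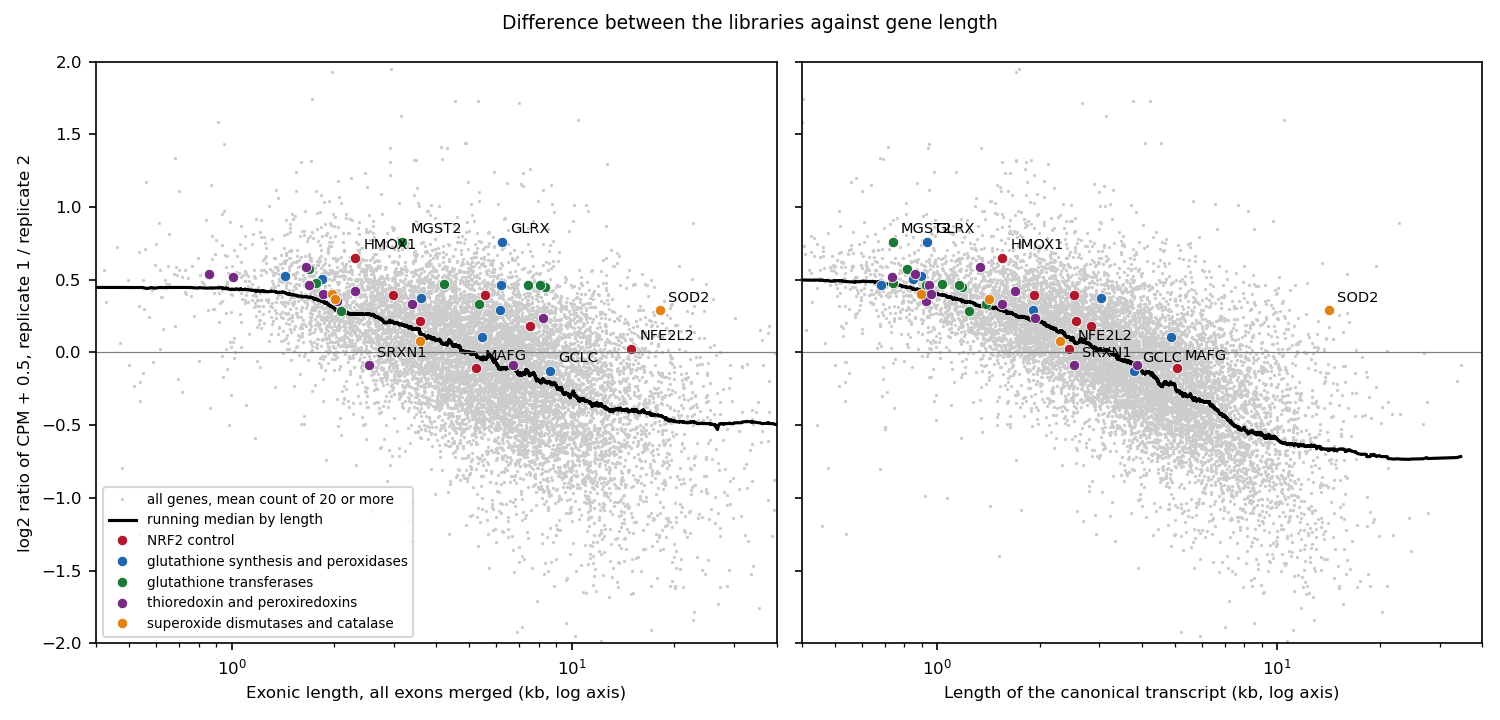
log2 ratio of CPM plus 0.5 of replicate 1 to replicate 2 against gene length in kilobases on a log axis, by merged exons at the left and by canonical transcript at the right. Coloured points are the 39 members with a mean count of at least 20, grey points all genes at that minimum, of which 55 lie outside the axes at the left, and the line is the running median over 501 genes. Members follow the line more closely at the right, except SOD2 at 0.97 above it.

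Most other genes of the pathway were expressed as well, and their differences between the libraries ran in both directions. Besides the members, 94 genes in 7 lists were examined, of which 84 were expressed, and their median over the 94 was 53.4 CPM. The exact test of edgeR called 44 of the 85 tested as higher in replicate 1, against 27.6% of all genes, and 23 as higher in replicate 2, against 30.1%. Differences of at least 1.5-fold were called for 15, against 16.6% of all genes. Of these, 11 were higher in replicate 1, against 5.76% of all genes, and 4 in replicate 2, against 10.8%. All 10 genes of NADPH supply were expressed, led by the pentose phosphate enzymes TKT with 1655 and 1332 CPM and PGD with 450 and 376 CPM. The lowest 2 of that list were IDH1 with 111 ± 11.0 CPM and PGLS with 68.4 ± 14.7 CPM (SD, n = 2 each).

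All 13 genes of cystine import and glutathione turnover were expressed too. SLC3A2 and SLC7A11, the subunits of the cystine transporter that feeds glutathione synthesis, were the 2 highest. SLC7A11 had 133 and 195 CPM and was called higher in replicate 2, whereas SLC3A2 had 294 and 268 CPM and was called higher in replicate 1. The lowest were CTH, of cysteine synthesis, with 105 and 115 counts, and GGT5 with 58 and 29. CHAC1, an enzyme of glutathione breakdown and a target of the stress factor ATF4, had 4.77 and 13.4 CPM and differed most of that list, toward replicate 2.

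Of 15 partners and regulators of NRF2, 14 were expressed, led by the related factor NFE2L1 with 149 ± 29.6 CPM and the small MAF gene MAFK with 131 ± 9.98 CPM (SD, n = 2 each). BACH2 had 91 and 70 counts and SESN3 had 5 in each library. BACH1, a repressor that competes with NRF2, had 24.0 and 38.8 CPM, and CUL3, the ubiquitin ligase scaffold that works with KEAP1, had 87.1 and 104 CPM. Of this list 8 genes were called higher in replicate 2, against 30.1% of all genes, and 4 in replicate 1, against 27.6%. Its expressed genes had a median of 5762 bases of merged exons against 3573 of the expressed members.

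The ferritin genes FTH1 and FTL, which store iron, were the 2 highest of 17 other NRF2 targets, with 5503 and 3836 CPM and 3733 and 2601 CPM. All 17 were expressed. The exact test called 14 of them higher in replicate 1, against 27.6% of all genes, and none in replicate 2, against 30.1%. The genes of this list had a median of 2494 bases of merged exons, against 5574.5 of all expressed genes with a gene model. Of genes with less than 2500 bases, 90.3% were higher in replicate 1. The part of length in these calls was not tested. The lowest of this list were PIR with 325 and 182 counts and AKR1B10 with 52 and 14. The aldo-keto reductases AKR1C1, AKR1C2 and AKR1C3, which reduce carbonyl groups and steroids, had 114 and 55.8 CPM, 142 and 69.8 CPM and 137 and 87.2 CPM. These reductases are closely related genes, and some ferritin pseudogenes are close copies of FTH1 and FTL, so the values of all of them are uncertain. CBR1, a carbonyl reductase that turns doxorubicin into doxorubicinol, had 129 and 98.1 CPM.

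Among 19 other glutathione enzymes, 11 were expressed, led by the glyoxalase GLO1 with 253 ± 2.26 CPM and GPX8, of the endoplasmic reticulum, with 152 ± 2.66 CPM (SD, n = 2 each). GPX5, GPX6, GPX7, GSTA3, GSTM5 and HPGDS had no counts in either library, so the lowest 2 cannot be singled out, and GSTA1 and GSTA2 had 1 to 5. Of 13 other genes of the thioredoxin system all were expressed, from PDIA6, a disulfide isomerase, with 457 ± 24.3 CPM (SD, n = 2), to TXNRD3 with 273 and 279 counts and TXNDC5 with 129 and 252. TXNIP, the inhibitor of thioredoxin, was the other of the highest 2, with 386 and 229 CPM. Of 7 genes of selenoprotein synthesis 6 were expressed, SEPHS1 with 109 ± 5.33 CPM and SEPHS2 with 88.1 ± 6.87 CPM leading (SD, n = 2 each). PSTK had 107 and 95 counts and SCLY 0 and 2.

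**Figure D4:**
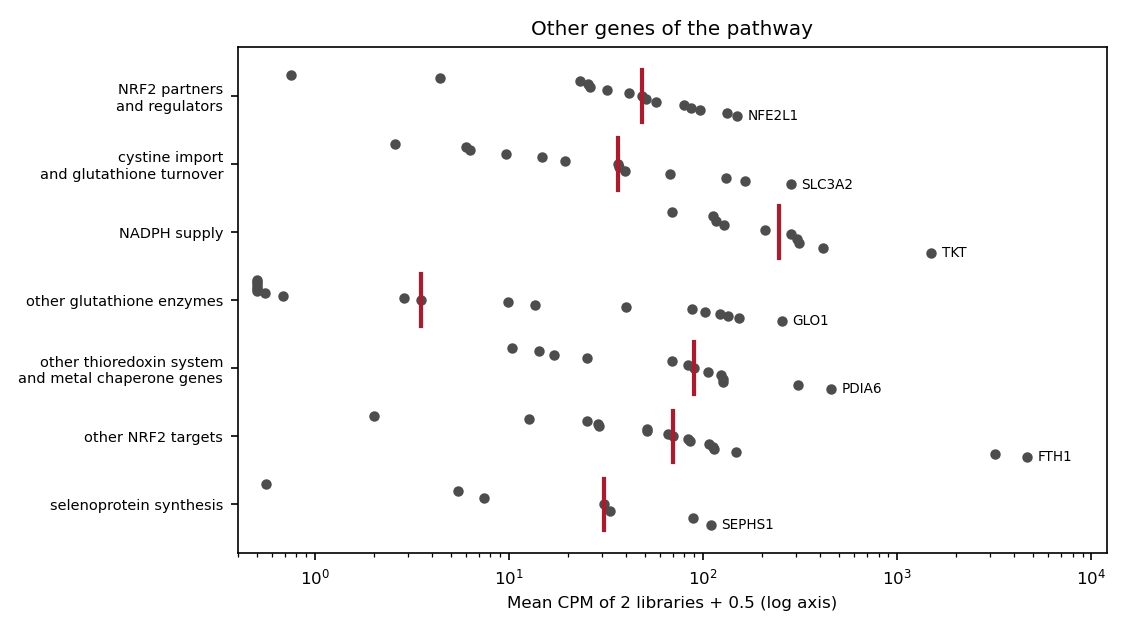
Mean CPM of 2 libraries plus 0.5, on a log axis, of 94 other genes of the pathway in 7 lists. Each point is a gene, red bars are list medians, and the highest gene of each list is named. NADPH supply has the highest median, 245 CPM, and other glutathione enzymes the lowest, 2.996 CPM, with 6 genes at 0.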

How the data were processed

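Each library has a deposited list of raw counts by gene symbol. By the methods of the study and the submitters' processing notes, the authors sequenced polyadenylated RNA with a directional NEBNext kit, used HISAT2 to place reads on hg19 after FastQC, and took counts from HTSeq in Galaxy. Tool versions, the gene set and whether strand was used are not given in the sources used here. Strand-blind counting would leave reads of overlapping genes unassignable. The exons of 14 members overlap another coding gene and 15 members have named pseudogene copies, whose shared reads such counting commonly leaves out. Overlaps and copies are not given here for the other pathway genes. Whether low counts among those genes reflect shared reads left out was not tested.

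CPM were computed from the total count of each library. Gene models came from GENCODE release 44 on GRCh37, the build of hg19, matched by symbol for 19334 of 23368 symbols, 82.7%, and for all members. Levels per kilobase used the merged exons of a gene, and the Ensembl canonical transcript as an alternative chosen after seeing the data. The libraries were compared with the exact binomial test of edgeR at an adjusted p of 0.05, with or without a minimum of 1.5-fold. The test was first tried on simulated counts with counting error only. That trial cannot show how the test behaves where libraries also differ by more than counting error, as these do. Log2 ratios used a pseudocount of 0.5 CPM.

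Genes named with values are all members in full or by range, the 2 highest and 2 lowest of each role per kilobase or of each pathway list by CPM, members under a mean count of 20, and the 3 largest ratios in each direction. Other pathway genes that are named, and members from the middle of a role, were chosen after their values were seen. Members and lists were chosen with earlier results of these data known. The minimum mean count of 20 is the one the study set for differentially expressed genes, beside a fold change and an adjusted p. It is used here to call a gene expressed. Both libraries were used, and no file was left out. Python 3.11.15, pandas 2.3.3, scipy 1.17.1, R 4.3.3, edgeR 4.0.16 and DESeq2 1.42.0 were used, DESeq2 only for size factors.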

Additional observations from a re-analysis of the deposited data

How the results depend on the processing

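No paired analysis was possible because there is 1 condition. Counts of members above the minimum count, and of members that differ between the libraries, stayed within 1.5 times of the reported count under other minimum counts, TMM library sizes, DESeq2 size factors, other filters and Fisher's exact test. The exception was a minimum of 2-fold in place of 1.5-fold, which left 0 members. The members above the minimum count numbered 39 without replicate 1 and 39 without replicate 2, and the median level was 80.2 and 98.0 CPM, or 83.5 CPM over the 20 members without named pseudogene copies or overlapping coding genes. The median log2 ratio of 0.39 was 0.40 with TMM, 0.38 with DESeq2 size factors, 0.38 with a pseudocount of 2 CPM, 0.17 as the distance from genes of like exonic length and 0.069 as that from genes of like canonical transcript length. The last 2 subtract the length trend by construction. Levels per kilobase moved by more than the spread between the libraries for 30 of 39 members with the longest transcript and for 34 with the canonical transcript, by at most 9.11 times, for GLRX2. With 2 libraries no outlying library can be told from the other, and depth limits statements on the 5 genes near 0.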
